A study of Mus musculus with 6 samples.

Results

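Integrins and the other receptors by which cells hold on to extracellular matrix were compared between cultured mesenchymal cells of the embryonic and the adult small intestine. The members were the table rows whose symbol names an integrin alpha or beta subunit, together with the discoidin domain receptors Ddr1 and Ddr2 and the syndecans Sdc1 to Sdc4. This gave 32 of 23329 genes, namely 18 alpha subunits, 8 beta subunits and 6 other receptors. The 7 leukocyte-type integrins (Itgal, Itgam, Itgax, Itgad, Itgae, Itgb2 and Itgb7) are described apart from the other 25. Counts were high enough to test for 28 members, which are 4 of the leukocyte-type genes and 24 of the others.

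The samples were 3 primary cultures of C57 embryos (embryonic day 14.5, E14.5) and 3 of adult C57 mice, with RNA taken at passage 2 to 3. Villi were scraped from the adult gut while the embryonic gut was cut up; in both, a chelating buffer then took off the epithelium before enzymatic digestion. The medium held serum and Y27632, and no step that selects mesenchymal cells is named. PBS stands in every deposited table name without explanation. Whether the cultures derive from different animals is not stated, so p-values measure the spread between these cultures, which may be technical. Gene counts ranged from 18850224 to 32672370 per library. Of the marker lists, mesenchymal genes summed to 13627 to 26387 CPM (read counts scaled to a common library size) at E14.5 against 13876 to 23763 CPM in the adult. Pdgfra, a common fibroblast marker, was at 2.47, 3.85 and 4.45 CPM at E14.5 against 29.5, 81.0 and 31.7 CPM in the adult. Of the 12 mesenchymal markers, 10 had a lower and 2 (Col1a1 and Dcn) a higher fitted level in E14.5, with a median log2 fold change of -0.57. For 6 of them every E14.5 library lay lower, beside 12% of all genes. The edgeR test called 2, Pdgfra and Col6a1, beside 1.08% of all genes. DESeq2 called 6, beside 10.6%, and limma-voom 1, beside 0.927%. The 12 epithelial markers summed to 26.7 to 67.1 CPM at E14.5 against 10.7 to 15.4 CPM in the adult. Most of that was Krt20, at 61.4, 47.0 and 24.4 CPM at E14.5 against 13.4, 9.09 and 13.7 CPM in the adult, while Cdx2 and Fabp2 had no counts and Epcam was at most 0.141 CPM. Of the 3 testable epithelial markers, Krt20 and Cldn4 were higher in every E14.5 library, beside 12.1% of all genes. Cldn4 passed the low-count filter only through the E14.5 libraries, so a difference in it was built into being tested. Of the 3 markers, 0 passed edgeR or limma-voom. In edgeR 1 had an unadjusted p under 0.05, beside 17.9% of all genes, and DESeq2 called 1, Krt20, beside 10.6%. The part of epithelial cells in the results was not tested.

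Integrins are pairs of an alpha and a beta subunit that span the cell membrane. Outside the cell the pair binds collagen, laminin, fibronectin or the latent form of TGF-beta, and inside it is coupled through talin and kindlin to actin. Which alpha subunit joins the beta1 chain largely sets the ligand, while beta2 and beta7 belong to leukocytes. Discoidin domain receptors are collagen-binding tyrosine kinases, and syndecans are heparan sulfate proteoglycans that assist integrins at adhesion sites. In gut mesenchyme these receptors serve cells that lay down the matrix under the epithelium and contract as smooth muscle and myofibroblasts.

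No member passed the edgeR quasi-likelihood test at an adjusted p of 0.05, that is, 0 of 28, where 1.08% of all 13478 tested genes did. By direction, edgeR called 0.245% of all genes as higher and 0.838% as lower in E14.5. At an unadjusted p under 0.05 there were 10 of 28 members, or 35.7%, against 17.9% of all genes (8.64% higher and 9.26% lower). These 10 were all 4 tested leukocyte-type genes, 2 other members higher in E14.5 (Itga6 and Sdc3) and 4 other members lower in E14.5 (Itgb8, Itga7, Sdc2 and Itga2b). DESeq2 called 7 of 28 (5 higher, 2 lower), against 10.6% of all genes (5.13% higher, 5.46% lower). The limma-voom fit called 1, Itgb8, as lower, against 0.927% of all genes (0.749% lower). Without E14.5 replicate 2, edgeR called Itga7 and Itgb8 as lower and none as higher, against 3.42% of all genes (1.39% higher, 2.02% lower). Groups of libraries did not overlap for 9 of 28 members, against 24.1% of all genes. Among the 24 members that are not leukocyte-type, 5 were without overlap (20.8%), 3 were called by DESeq2 (12.5%) and 6 had an unadjusted p under 0.05 (25.0%). Their median log2 fold change was -0.39, with 18 of 24 below 0. Over all tested genes the median was 0.01, with 6541 of 13478 below 0. Several of the 18, among them Itga1, Sdc1, Itga4 and Itga5, lay within 1 SE of 0. Itgam and Itgax passed the low-count filter only through the E14.5 libraries and Itgb8 only through the adult libraries, so a difference in these was built into being tested.

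**Figure D1:**
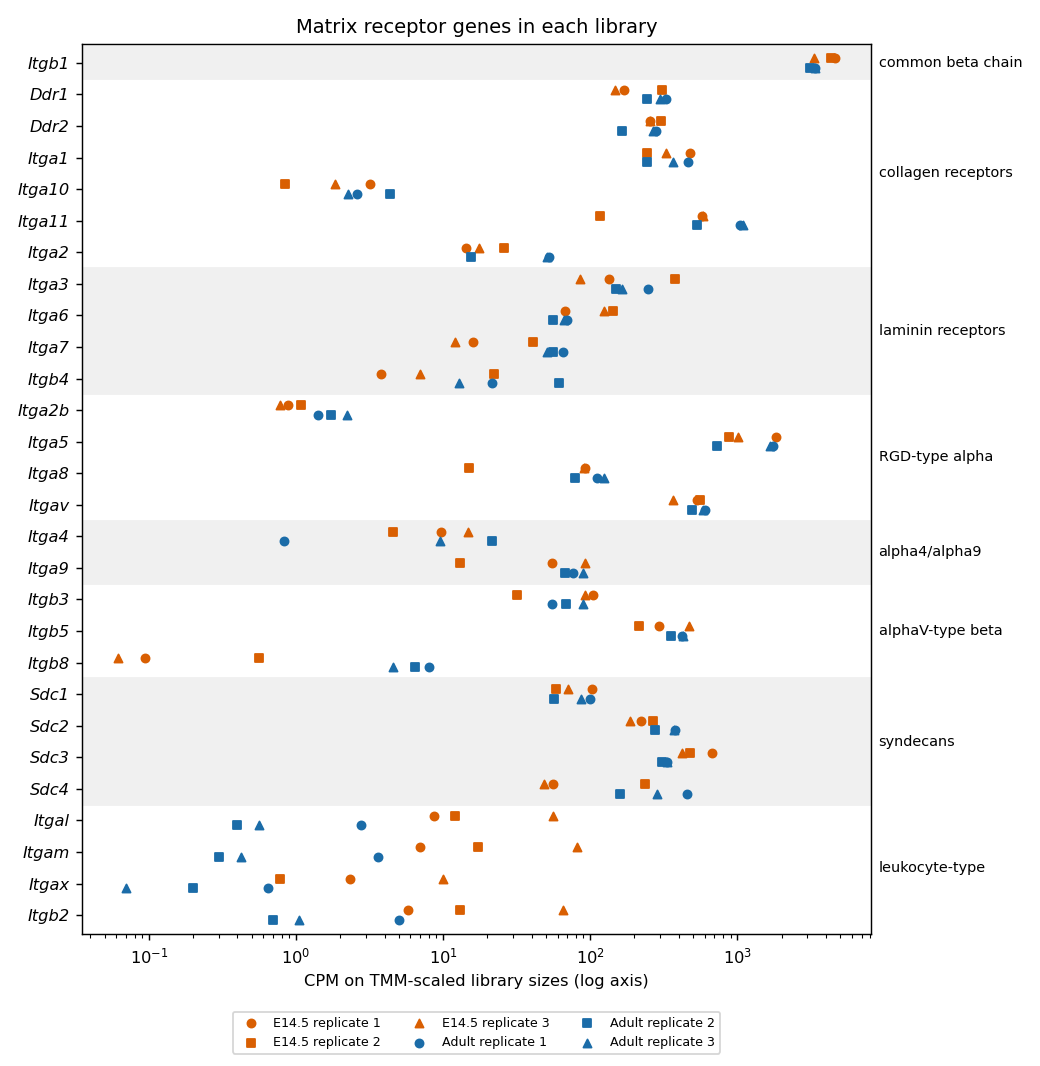
Level of the 28 tested members in each library, in CPM on a log axis, with E14.5 libraries in orange and adult libraries in blue and a marker shape for each replicate number. Most rows overlap between the groups, whereas Itgb8 sits at 0.0618 to 0.559 CPM at E14.5 against 4.54 to 8.06 CPM in the adult, and the 4 leukocyte-type genes lie to the right in E14.5.

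**Figure D2:**
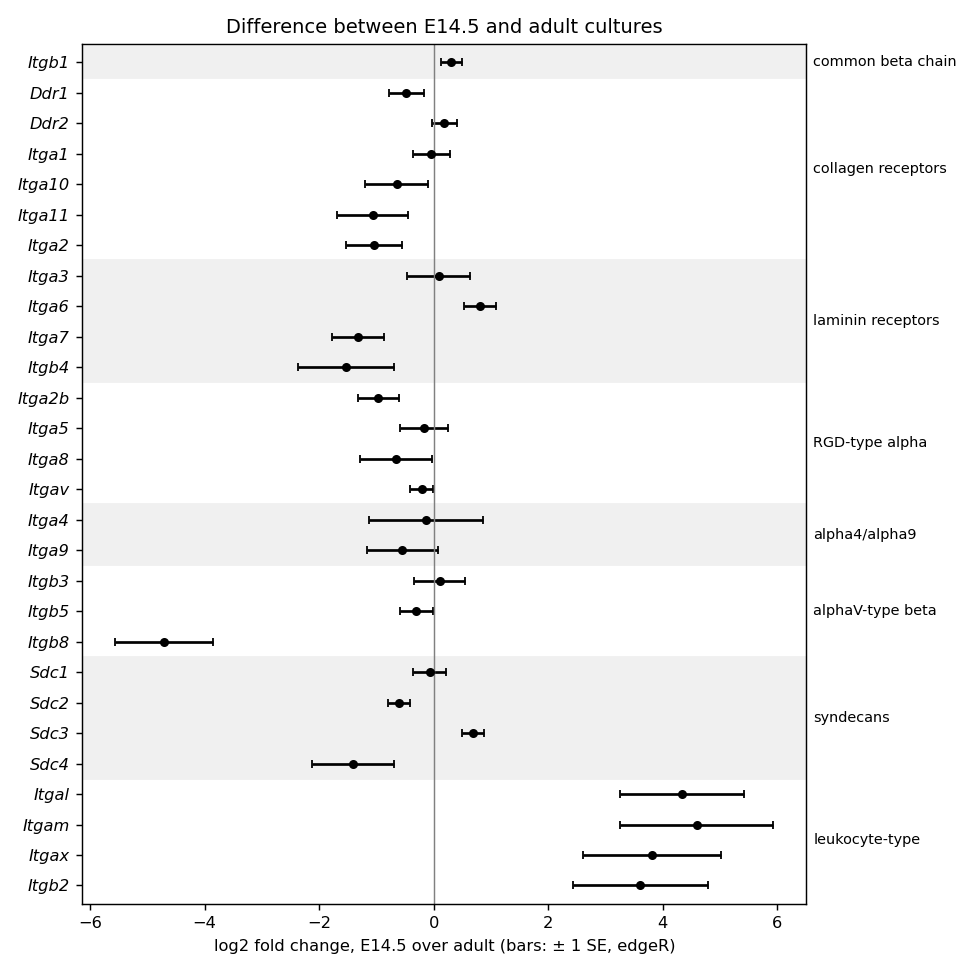
Log2 fold change of E14.5 over adult for the same 28 members, with bars of 1 standard error on each side. Itgb8, at -4.71, is the only row outside the leukocyte-type genes beyond 2 in size, and the leukocyte-type genes lie between 3.61 and 4.60.

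In the following, 3 values for a group are those of replicates 1, 2 and 3 in this order, in CPM on TMM-scaled library sizes. Fold changes are E14.5 over adult from edgeR, with an approximate standard error (SE), and adjusted p-values cover all tested genes. Genes were compared with each other on CPM per kb of exon, which corrects for gene length.

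The beta1 chain gene Itgb1 was the most abundant member. It lies on chromosome 8 of GRCm38 (mm10) from 128685654 to 128733200. It measured 4611, 4329 and 3342 CPM at E14.5 against 3363, 3133 and 3399 CPM in the adult, and E14.5 replicate 3 lay inside the adult range. The fitted log2 difference was 0.31 (SE 0.18, adjusted p = 0.434). Per kb, Itgb1 was at 1073 ± 175 CPM at E14.5 against 865 ± 37.9 CPM in the adult (SD, n = 3 each), which made up 89.6% and 86.3% of the 8 beta genes together. The 12 alpha genes known to pair with beta1 summed to 560 ± 143 and 708 ± 227 CPM per kb, so in each of the 6 libraries Itgb1 stood above its partners together. The gap was smallest in adult replicate 1, with 882 CPM per kb of Itgb1 beside 856. The partner sum overlapped between the groups.

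Among alpha subunits, the fibronectin receptor chain Itga5 was the most abundant per kb in both groups, with 282 ± 116 CPM per kb in E14.5 and 316 ± 131 in adults. It was followed by Itga11 (86.0 ± 54.2 and 180 ± 63.2 CPM per kb) and Itgav (68.7 ± 14.9 and 79.5 ± 8.40). Within E14.5 the ranges of Itga11 and Itgav overlapped, at 23.4 to 119 and 51.6 to 79.2 CPM per kb, while in adults Itga11 lay above Itgav in all 3 libraries. Itga3, Itga1 and Itga6 came next in E14.5 at 37.9, 31.8 and 25.6 CPM per kb, with SDs of 29.7, 10.7 and 9.00 that do not set them apart. The adult order had Itga3 and Itga1 at 35.7 and 32.7 CPM per kb, then Itga8, Itga6 and Itga7 at 18.0, 14.6 and 13.8. Lengths are those of all annotated exons of a gene, so isoform use could shift these ranks.

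By class, alpha subunits that bind the RGD motif of fibronectin and vitronectin made up 69.8%, 62.2% and 55.2% of the alpha sum per kb in E14.5 and 58.9%, 55.7% and 59.3% in adults. Collagen-binding subunits took 22.3%, 10.9% and 28.1% in E14.5 and 30.5%, 29.5% and 31.9% in adults, without overlap. E14.5 replicate 2 stood lowest for the collagen share and highest for the laminin-binding share, at 25.2%, where the other 5 libraries lay between 6.20% and 12.2%. Leukocyte-type alpha subunits took 0.461%, 1.22% and 5.14% in E14.5 and at most 0.153% in adult libraries. These shares are descriptions with no test. In such bulk samples fewer cells of a type and less RNA per cell cannot be told apart.

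**Figure D3:**
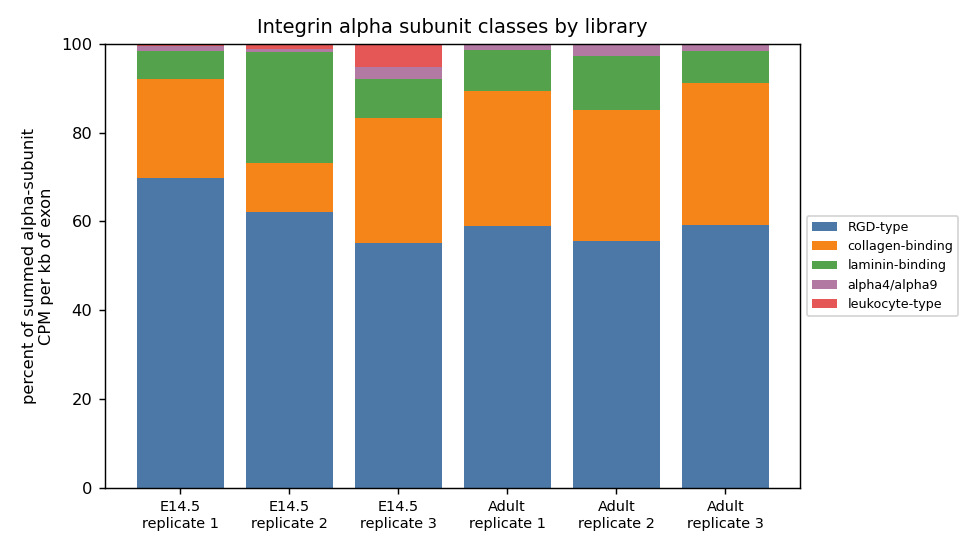
Share of each class of alpha subunit in the summed alpha-subunit CPM per kb of exon, as stacked bars for the 6 libraries. The collagen-binding share is 10.9% to 28.1% in E14.5 and 29.5% to 31.9% in adult libraries, and E14.5 replicate 2 has a laminin-binding share of 25.2%.

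The collagen receptors held no member past the test in edgeR, DESeq2 or limma-voom, and none had an unadjusted p under 0.05. Itga11, the alpha chain for fibrillar collagen typical of fibroblasts, had the highest mean of them per kb, although E14.5 replicate 2 held more Ddr1 per kb than Itga11 (75.7 and 23.4 CPM per kb). It measured 576, 116 and 589 CPM at E14.5 against 1052, 532 and 1098 CPM in the adult. Only adult replicate 2 reached down to the E14.5 values, and edgeR gave a log2 fold change of -1.07 (SE 0.62, adjusted p = 0.455). Itga1, which binds collagen IV among others, was at 476, 244 and 327 CPM at E14.5 against 465, 243 and 367 CPM in the adult. These values interleave, and edgeR gave a log2 fold change of -0.04 (SE 0.32). Itga2, which prefers fibrillar collagen and is known from epithelium and platelets, measured 14.3, 25.8 and 17.7 CPM at E14.5 against 52.2, 15.5 and 51.3 CPM in the adult. Adult replicate 2 alone overlapped E14.5, and edgeR gave a log2 fold change of -1.04 (SE 0.48, adjusted p = 0.333). Itga1 and Itga2 are neighbours on chromosome 13, with Itga2 from 114833081 to 114932100 and Itga1 from 114953096 to 115101964. Itga10, a chondrocyte collagen receptor, had at most 4.37 CPM in any library.

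The discoidin domain receptors overlapped between the groups, and per kb Ddr1 (50.9 ± 21.6 CPM per kb in E14.5 and 71.0 ± 10.9 in adults) stood above Ddr2 (31.4 ± 3.12 and 27.6 ± 7.27) in all 6 libraries. Ddr1, known mostly from epithelium, measured 169, 310 and 146 CPM at E14.5 against 330, 242 and 300.5 CPM in the adult (a log2 fold change of -0.48, SE 0.31, adjusted p = 0.495). E14.5 replicate 2 lay among the adult libraries. Ddr2, the form of mesenchymal cells, measured 254, 301 and 255.5 CPM at E14.5 against 278.9, 165 and 268 CPM in the adult (a log2 fold change of 0.19, SE 0.22, adjusted p = 0.741). The ratio of its highest to its lowest value was the smallest among the 6 collagen receptors.

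Of the 4 laminin receptor genes 0 passed edgeR, 2 had an unadjusted p under 0.05 with opposite signs, DESeq2 called 1 and limma-voom 0, where 17.9% of all genes were under that unadjusted threshold and DESeq2 called 10.6%. Itga7, the laminin receptor chain of muscle, lay lower in every E14.5 library, at 16.0, 40.7 and 12.1 CPM against 65.1, 56.0 and 50.7 CPM in adults. The fitted log2 difference was -1.32 (SE 0.46) with adjusted p = 0.209 in edgeR and 0.0489 in DESeq2. Without E14.5 replicate 2, the embryonic library nearest to the adults, edgeR gave -2.03 and adjusted p = 0.0174. The sums of the 10 smooth muscle markers overlapped between the groups, at 26913 to 38776 CPM at E14.5 against 20066 to 31742 CPM in the adult. Of these markers 6 had a higher fitted level in E14.5, and 4 (Smtn, Lmod1, Cnn1 and Tagln) had a lower 1, as Itga7 did. Des and Synpo2 lay higher in every E14.5 library, beside 12.1% of all genes, and the other 8 markers overlapped. The part of smooth muscle cells in the Itga7 values was not tested. The gene lies on chromosome 10 from 128933818 to 128958282.

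Itga6, a laminin receptor chain that pairs with beta1 or beta4, measured 67.9, 143 and 124 CPM at E14.5 against 69.6, 55.6 and 66.0 CPM in the adult. Only E14.5 replicate 1 lay within the adult range, and edgeR gave a log2 fold change of 0.81 (SE 0.28, adjusted p = 0.210). Itga3, another laminin-binding chain, was at 134, 377 and 85.9 CPM at E14.5 against 247, 150 and 165 CPM in the adult. The highest and the lowest of its 6 values were both embryonic (log2 fold change 0.09, SE 0.55). Itgb4, the beta chain of hemidesmosomes, measured 3.78, 22.3 and 6.95 CPM at E14.5 against 21.4, 61.5 and 12.7 CPM in the adult (a log2 fold change of -1.53, SE 0.83, adjusted p = 0.417). Adult replicate 2, with the highest Itgb4, was also the library with the highest sum of 15 endothelial markers, at 2015 CPM, where adult replicates 1 and 3 had 37.7 and 459 CPM and the E14.5 libraries 22.7 to 67.3 CPM. Replicates 1 and 3 of the adult stood in the opposite order for Itgb4. Among adults, replicate 2 was likewise highest for the sums of cell cycle markers (499 CPM) and of neural and glial markers (147 CPM). Mesothelial markers, of which 8 of 9 have a row, summed to 171, 847 and 159 CPM at E14.5 against 1568, 707 and 827 CPM in the adult. In E14.5 they were thus highest in replicate 2, as were Itga3, Itga7 and Itgb4. Among adults they were highest in replicate 1, as were Itga3 and Itga7, while Itgb4 was highest in replicate 2, where the mesothelial sum was lowest. The part of any of these cell types or of dividing cells in these values was not tested.

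None of the 4 alpha chains for RGD ligands passed edgeR, DESeq2 or limma-voom, and Itga2b alone had an unadjusted p under 0.05. Itga5, on chromosome 15 from 103344286 to 103366763, measured 1820, 880 and 1007 CPM at E14.5 against 1754, 725 and 1678 CPM in the adult (a log2 fold change of -0.17, SE 0.42, adjusted p = 0.901). In each group a single replicate set the range, replicate 1 as the highest in E14.5 and replicate 2 as the lowest in adults. Itgav, the shared partner of beta3, beta5, beta6 and beta8, measured 531, 559 and 364 CPM at E14.5 against 605, 493 and 583 CPM in the adult (a log2 fold change of -0.21, SE 0.20, adjusted p = 0.665). Itga8, the nephronectin receptor chain of smooth muscle and fibroblasts, was at 92.8, 15.0 and 90.3 CPM at E14.5 against 110, 79.3 and 123 CPM in the adult. Without E14.5 replicate 2 the embryonic values reach into the adult range, and with it edgeR gave -0.66 on the log2 scale (SE 0.63, adjusted p = 0.678).

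The platelet integrin chain Itga2b was at 0.876, 1.09 and 0.772 CPM at E14.5 against 1.40, 1.74 and 2.21 CPM in the adult, without overlap and at low levels throughout (log2 fold change -0.97, SE 0.36, adjusted p = 0.230). The 8 platelet and megakaryocyte markers summed to 8.47 to 30.9 CPM at E14.5 against 3.92 to 5.70 CPM in the adult. Of the 3 tested markers, Ppbp and Pf4 were higher in every E14.5 library, beside 12.1% of all genes. Ppbp was at 26.5, 2.30 and 3.65 CPM and Pf4 at 1.13, 4.90 and 14.3 CPM there against at most 0.0703 and 0.984 CPM in the adult. Both passed the low-count filter only through the E14.5 libraries, so a difference in them was built into being tested. Of the 3 markers edgeR and limma-voom called 0, and DESeq2 called 2 (Ppbp and Pf4), beside 10.6% of all genes. Gp1bb lay lower in every E14.5 library, as Itga2b did, at 3.13, 1.15 and 3.06 CPM against 4.47, 3.43 and 5.31 CPM. Gp6 had no counts, and Gp9 and Gp1ba had none in any E14.5 library. The part of platelets or megakaryocytes was not tested.

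Itga4 and Itga9, which share ligands such as VCAM1 and osteopontin, both overlapped between the groups. Itga9 measured 55.0, 13.1 and 91.5 CPM at E14.5 against 76.5, 67.0 and 89.5 CPM in the adult (a log2 fold change of -0.55, SE 0.62, adjusted p = 0.733), and E14.5 replicate 2 was lowest by far. Itga4 had the widest adult spread of the members that are not leukocyte-type, with 9.69, 4.59 and 14.8 CPM at E14.5 against 0.833, 21.7 and 9.53 CPM in the adult. Its adult order was that of the endothelial marker sums given above. It was also that of the sums of cell cycle markers (186, 499 and 271 CPM) and of neural and glial markers (77.1, 147 and 92.9 CPM). In E14.5 the Itga4 order was that of the cell cycle sums (239, 138 and 501 CPM) but not of the endothelial sums (67.3, 22.7 and 25.5 CPM). The part of any of these cell types or of dividing cells in the Itga4 values was not tested. The fitted log2 difference of Itga4 was -0.13 (SE 1.00, adjusted p = 0.964).

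Of the beta chains that pair with alphaV, Itgb8 showed the largest difference of all members outside the leukocyte-type genes. Integrin alphaV-beta8 is known to bind latent TGF-beta and to activate it. The gene lies on chromosome 12 from 119158022 to 119238802 on the minus strand. Raw counts were 3, 18 and 2 in E14.5 and 213, 129 and 129 in adult libraries, or 0.0938, 0.559 and 0.0618 CPM against 8.06, 6.41 and 4.54 CPM. The highest embryonic value, 0.559 CPM, lay well under the lowest adult value. The fitted log2 fold change was -4.71 (SE 0.85), a 26.1-fold lower level, with adjusted p = 0.0702 in edgeR. DESeq2 gave an adjusted p of 2.0e-07 and limma-voom 0.0458. Without E14.5 replicate 2, which holds most of the embryonic counts, edgeR gave -6.27 and 0.0150. Leaving out any other single library gave an adjusted p of 0.0940 to 0.236. Between libraries that share the opening digits of their titles, the log2 difference was -6.43, -3.52 and -6.20.

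The other alphaV partners did not follow Itgb8. Itgb5, a vitronectin receptor chain and by far the most abundant of them, measured 294, 216 and 467 CPM at E14.5 against 424, 353 and 428 CPM in the adult (a log2 fold change of -0.30, SE 0.29, adjusted p = 0.677). Itgb3, which pairs with alphaV in mesenchyme and with alphaIIb in platelets, measured 105, 31.7 and 92.3 CPM at E14.5 against 55.3, 68.4 and 89.4 CPM in the adult (a log2 fold change of 0.10, SE 0.44). Its lowest and highest values were both embryonic. Itgb6, the epithelial activator of latent TGF-beta, had too few reads to test, with 4, 11 and 7 counts in E14.5 and 0, 0 and 2 counts in adults.

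Lrrc32, which encodes GARP, a membrane anchor that presents latent TGF-beta to alphaV-beta8, was the only gene of a list of integrin ligands past the edgeR test. It measured 16.8, 3.79 and 14.7 CPM at E14.5 against 371, 164 and 361 CPM in the adult. It thus fell by 4.67 on the log2 scale in E14.5 (SE 0.67, adjusted p = 0.0405, edgeR), and all 3 embryonic libraries lay far below the adult ones. Of TGF-beta genes in the ligand list, Tgfb1 measured 75.1, 79.4 and 94.2 CPM at E14.5 against 67.5, 50.9 and 63.0 CPM in the adult. These values did not overlap (adjusted p = 0.191, edgeR). Tgfb3 was more abundant, at 816, 964 and 340 CPM at E14.5 against 954, 522 and 821 CPM in the adult. It overlapped between the groups (a log2 fold change of -0.12, SE 0.42, adjusted p = 0.932). Lrrc33, the related anchor of macrophages, was at 3.19, 5.18 and 27.7 CPM at E14.5 against 2.23, 1.44 and 0.598 CPM in the adult (a log2 fold change of 3.08, SE 0.97, adjusted p = 0.176). Without E14.5 replicate 2 the adjusted p for Lrrc32 was 0.0204, and without each of the other 5 libraries in turn it was 0.0657 to 0.184, past the threshold in none of them. Tgfb1, Tgfb3 and Lrrc33 are named after their values were seen, for their link to latent TGF-beta.

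The 4 syndecans differed in direction. Sdc3, best known from the nervous system and muscle precursors, was higher in every E14.5 library, at 668, 478 and 424 CPM against 335, 308 and 335 CPM. The fitted log2 difference was 0.68 (SE 0.19), a 1.61-fold difference, with adjusted p = 0.141 in edgeR and 0.0206 in DESeq2. Sdc2, the main syndecan of fibroblasts, was lower in every E14.5 library, at 223, 268 and 187 CPM against 379, 276 and 374 CPM (log2 fold change -0.60, SE 0.19, adjusted p = 0.176). E14.5 replicate 2 and adult replicate 2 were nearly equal for it.

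Sdc4, which works with alpha5-beta1 at focal adhesions, measured 55.5, 235 and 48.6 CPM at E14.5 against 457, 160 and 286 CPM in the adult. E14.5 replicate 2 reached above the lowest adult library, and edgeR gave a log2 fold change of -1.41 (SE 0.71, adjusted p = 0.378). Without that library it was -2.53 (adjusted p = 0.0586, edgeR). Sdc1, known from epithelium and plasma cells, was at 102, 58.9 and 70.4 CPM at E14.5 against 100.2, 56.4 and 86.1 CPM in the adult (a log2 fold change of -0.07, SE 0.28). Per kb, Sdc3 made up 53.2%, 33.5% and 47.2% of the syndecan sum in E14.5 and 17.2%, 27.7% and 21.3% in adults, without overlap. Sdc4 took 8.94%, 33.4% and 11.0% in E14.5 and 47.3%, 29.2% and 36.7% in adults, and there E14.5 replicate 2 exceeded adult replicate 2.

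The leukocyte-type integrins were present at low levels and lay higher in every E14.5 library for all 4 genes that could be tested, beside 12.1% of all genes. Of these 4, Itgam and Itgax passed the low-count filter only through the E14.5 libraries, as said above. The leukocyte-type integrins comprise beta2 with its partners alphaL (LFA-1), alphaM (Mac-1, of macrophages and neutrophils), alphaX and alphaD, and beta7 with alphaE. Itgam measured 7.01, 17.2 and 81.9 CPM at E14.5 against 3.60, 0.298 and 0.422 CPM in the adult. Itgal measured 8.63, 12.0 and 55.6 CPM against 2.76, 0.397 and 0.563 CPM. E14.5 replicate 3 was the highest and adult replicate 1 the highest of its group for both. The log2 fold changes were 4.60 (SE 1.34, adjusted p = 0.152) for Itgam and 4.34 (SE 1.09, adjusted p = 0.124) for Itgal in edgeR. DESeq2 gave 0.00930 and 4.7e-05 as adjusted p.

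Itgb2, the shared beta chain, was at 5.82, 13.1 and 64.9 CPM at E14.5 against 5.04, 0.695 and 1.05 CPM in the adult (a log2 fold change of 3.61, SE 1.18, adjusted p = 0.186). E14.5 replicate 1 and adult replicate 1 were nearly equal for it. Itgax, known from dendritic cells and macrophages, was at 2.35, 0.776 and 9.95 CPM at E14.5 against 0.644, 0.199 and 0.0703 CPM in the adult (a log2 fold change of 3.81, SE 1.20, adjusted p = 0.176). DESeq2 called both. The remaining genes Itgb7, Itgae and Itgad had too few reads to test. Itgb7 had 8, 2 and 4 counts in E14.5 and 0, 1 and 2 in adults, Itgae had 3, 1 and 1 against none, and Itgad had a single count in all 6 libraries.

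Macrophage and other leukocyte markers were high in the same libraries. Of 20 listed, 19 have a row, 16 were tested, and 15 lay higher in every E14.5 library, beside 12.1% of all genes. Among these, Mrc1 and Cd52 passed the low-count filter only through the E14.5 libraries. In edgeR 0 passed and 15 had an unadjusted p under 0.05, beside 17.9% of all genes. DESeq2 called 13, beside 10.6%, and limma-voom 0, around a median of 4.37 on the log2 scale. The 19 markers summed to 299.8, 527 and 3394 CPM at E14.5 against 217, 27.5 and 56.6 CPM in the adult. Ptprc, the pan-leukocyte CD45 gene, measured 7.82, 9.93 and 61.1 CPM at E14.5 against 2.31, 0.348 and 0.563 CPM in the adult. The defining lymphocyte markers Cd3e and Cd79a were at most 0.0938 CPM. The 7 leukocyte-type integrins summed to 24.2, 43.1 and 213 CPM at E14.5 against 12.0, 1.64 and 2.18 CPM in the adult. That was 8.06%, 8.19% and 6.26% of the marker sum in E14.5 and 5.55%, 5.96% and 3.85% in adults, without overlap. The highest integrin sum was 130 times the lowest, and the highest ratio to the markers was 2.12 times the lowest. In adult replicate 1, 98.7 of the 217 CPM of the marker sum came from Lyz2, which overlapped between the groups. The part of leukocytes in the cultures in these differences was not tested.

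**Figure D4:**
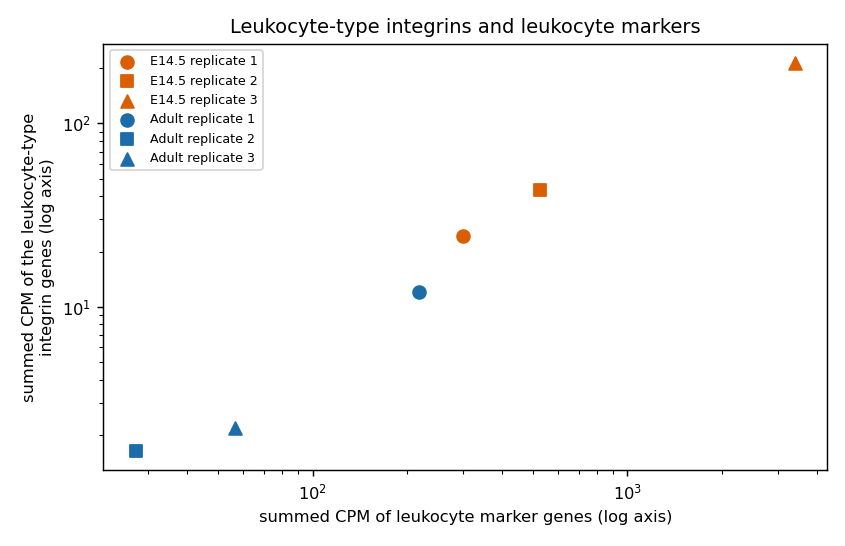
Summed CPM of the 7 leukocyte-type integrin genes against the summed CPM of 19 leukocyte marker genes in each library, both on log axes. The libraries run from adult replicate 2 (1.64 and 27.5 CPM) to E14.5 replicate 3 (213 and 3394 CPM), and adult replicate 1 lies next to E14.5 replicate 1.

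Itgam, Itgax and Itgad stand side by side on chromosome 7, from 128062640 to 128118491, 128129547 to 128150657 and 128154376 to 128223816 on the plus strand, and only the first 2 had reads enough to test. The bases upstream of their RefSeq starts (GRCm38.p6, plus strand, from 250 to 4 bases before the start) are shown because these neighbours were both highest in E14.5 replicate 3 and, among adults, in replicate 1. That pattern is not particular to them, since Itgal, Itgb2 and Ptprc had it as well. Capitals mark GAGGAA or its reverse complement TTCCTC, letters at the core of sites for PU.1, a transcription factor of myeloid cells. Itgam covers chr7:128062390-128062636 and Itgax chr7:128129300-128129546.
Itgam: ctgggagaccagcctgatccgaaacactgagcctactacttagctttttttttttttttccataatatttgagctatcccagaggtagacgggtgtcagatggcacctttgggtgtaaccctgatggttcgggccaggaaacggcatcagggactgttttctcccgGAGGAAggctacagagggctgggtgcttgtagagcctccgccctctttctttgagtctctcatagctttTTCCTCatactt
Itgax: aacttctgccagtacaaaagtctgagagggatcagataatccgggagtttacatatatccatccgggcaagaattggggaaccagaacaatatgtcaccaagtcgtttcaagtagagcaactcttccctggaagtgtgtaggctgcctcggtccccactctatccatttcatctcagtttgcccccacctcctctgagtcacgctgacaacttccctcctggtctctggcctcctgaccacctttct
The Itgam stretch held 2 matches, beginning 84 and 15 bases before the start, and the Itgax stretch held none. In windows of 250 bases before the start, the letters occurred on either strand in 23.3% of 32851 RefSeq windows, and in 9 of 28 windows of the 23 members that have an entry. Also counted were GGGCGG, in 32.7% of all windows and 13 of the 28, and TATAAA, in 12.4% and 1 of the 28. Any role of these letters in the levels was not tested. The windows of Itgam, Itgax and Itgb7 held 6, 5 and 5 CpG dinucleotides, where the 25 windows of other members held 1 to 34 and the median over all RefSeq windows was 6.

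The median variation between cultures was larger for these receptors than over all genes. The median coefficient of variation of the 24 tested members that are not leukocyte-type was 41.9% in E14.5 and 25.3% in adults, beside 20.7% and 13.5% over all tested genes. E14.5 replicate 2 was the highest or the lowest embryonic library for 22 of these 24 members (91.7%), and for 73.6% of all genes. It was lowest for 10, among them Itga8, Itga9, Itga11 and Itgb3, and highest for 12, among them Itga3, Itga7, Sdc4, Ddr1 and Itgb4. Adult replicate 2 was the lowest adult library for 17 of the 24 (70.8%), and for 38.7% of all genes.

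The wider adhesion machinery was read from 4 lists. Of 42 genes of the adhesion complex inside the cell, all were tested and 0 passed edgeR, 8 (19.0%, beside 17.9% of all genes) were under 0.05 before adjustment, DESeq2 called 5 (11.9%, beside 10.6%) and limma-voom 0. Their median log2 fold change was -0.10. The actin cross-linker gene Flna and the alpha-actinin gene Actn1 had the highest mean CPM, at 3860 and 2510 CPM at E14.5 against 4428 and 2486 CPM in the adult, with adjusted p of 0.677 and 0.978. The largest differences without overlap belonged to Fermt3 and Parvg, the kindlin and parvin of blood cells. Fermt3 measured 5.29, 8.29 and 47.3 CPM at E14.5 against 2.35, 0.348 and 0.668 CPM in the adult (adjusted p = 0.140). Parvg measured 4.003, 2.61 and 26.4 CPM against 0.568, 0.248 and 0.0352 CPM (adjusted p = 0.121). Both were highest in E14.5 replicate 3, as were the leukocyte markers, whose part was not tested. Parvg passed the low-count filter only through the E14.5 libraries, so a difference in it was built into being tested.

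Of 33 integrin ligand genes 29 were tested, and Lrrc32 was the only 1 past edgeR, beside 1.08% of all genes. An unadjusted p under 0.05 was found for 14 (48.3%, beside 17.9% of all genes), 7 higher and 7 lower in E14.5. DESeq2 called 9 (31.0%, beside 10.6%) and limma-voom 1 (beside 0.927%). Groups did not overlap for 15 (51.7%, beside 24.1%), and the median log2 fold change was -0.14. Ligands with the highest mean CPM were Fn1 (fibronectin, 14881 ± 875 CPM at E14.5 against 11863 ± 2259 CPM in the adult), Thbs1 (thrombospondin 1, 11580 ± 3879 and 16793 ± 1701 CPM) and Col1a1 (9496 and 5279 CPM), with adjusted p of 0.488, 0.428 and 0.271. Tgfbi, a secreted integrin ligand, measured 89.3, 10.3 and 146 CPM at E14.5 against 5.60, 4.07 and 3.20 CPM in the adult (a log2 fold change of 4.25, SE 0.94, adjusted p = 0.100).

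Of 16 other matrix receptors, all tested, 0 passed edgeR. Under 0.05 before adjustment were 9 (56.2%, beside 17.9% of all genes), 3 higher and 6 lower in E14.5. DESeq2 called 7 (43.8%, beside 10.6% of all genes) and limma-voom 0, with a median of -0.24. Cd36, a thrombospondin receptor of macrophages, endothelium and adipocytes, measured 10.2, 24.1 and 54.8 CPM at E14.5 against 0.984, 0.0497 and 0.281 CPM in the adult (a log2 fold change of 6.02, SE 1.03, adjusted p = 0.0646). Cd36 passed the low-count filter only through the E14.5 libraries, so a difference in it was built into being tested. Gpc3, a fetal glypican, measured 336.5, 47.6 and 307 CPM at E14.5 against 26.9, 19.5 and 16.9 CPM in the adult (a log2 fold change of 3.45, SE 0.73, adjusted p = 0.0968). The endocytic receptor Lrp1, the glypican Gpc4 and the dystroglycan gene Dag1 had the highest mean CPM, with adjusted p of 0.981, 0.205 and 0.229. Of 12 membrane partners of integrins, 0 passed edgeR and 3 (25%, all lower in E14.5) were under 0.05 before adjustment. DESeq2 called 2 (16.7%, beside 10.6% of all genes) and limma-voom 0. The tetraspanin gene Tspan4 was at 46.2 ± 7.25 CPM at E14.5 against 96.3 ± 29.0 CPM in the adult, and Igsf8, which binds tetraspanins, at 27.1 ± 3.68 and 60.0 ± 15.6 CPM, both without overlap (adjusted p = 0.102 and 0.0844). The partners with the highest mean CPM, Cd81, Bsg and Cd151, had adjusted p of 0.941, 0.604 and 0.444.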

How the data were processed

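RNA-seq counts of 3 E14.5 and 3 adult cultures were analysed. The authors deposited raw read counts per gene, made with STAR on mm10 per the submitters' processing notes; the STAR version, annotation and rule for shared reads were not given in the sources used here. Reverse-strand counts were used, since forward-strand reads made up 1.33% to 1.69% of stranded gene counts. Rows naming no gene (17.4% to 19.8% of reads) were left out. Replicates were numbered in accession order.

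All genes were fitted in R 4.3.3 with edgeR 4.0.16 (filterByExpr by group, TMM, robust quasi-likelihood test, Benjamini-Hochberg adjustment over 13478 genes); DESeq2 1.42.0, limma-voom (limma 3.58.1), other scalings, filters, the unstranded counts, the title prefix as a block and fits without libraries were alternatives. SE is the fold change divided by the square root of F. CPM per kb used exon unions of GENCODE M21 (GRCm38). Members and lists were chosen with earlier results of these data known. Every member is named; from each of 4 context lists, genes past the threshold, the 3 most abundant and the 2 largest differences without overlap and at least 10 CPM were named. Some items that this rule names are not reported here. With 3 against 3 libraries an exact permutation test cannot go below 0.10, so none was used. Promoter windows are from RefSeq.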

Additional observations from a re-analysis of the deposited data

How the results depend on the processing

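Of 475 alternative values for single members, 438 kept their direction and side of the threshold, 10 passed the threshold that the main value missed, and 27 changed sign, all in 7 members close to 0 (Ddr2, Itga1, Itga3, Itga4, Itga5, Itgb3 and Sdc1). The number of members past the test, 0, was 7 with DESeq2 (5 higher and 2 lower), 1 with limma-voom (lower), and 0 to 2 in fits without a single library, the 2 lower genes coming without E14.5 replicate 2. The count over all genes, 146, was 1427 with DESeq2, 3 to 471 without a single library, 36 with adult 2 and E14.5 3 left out together and 0 with adult 2 and 3 left out. With the title prefix as a replicate block it was 2. Deviations of libraries with the same prefix correlated at -0.14, -0.23 and -0.09, so no positive correlation within a prefix was seen. What the prefix marks is not stated, so these values cannot exclude shared handling. No member was called under the block, where Itgb8 had a log2 fold change of -5.13 (adjusted p = 0.146, edgeR).

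Without a single library the log2 fold change ranged from -0.0197 to 0.32 for Ddr2, -0.34 to 0.19 for Itga1, -0.77 to 0.45 for Itga3, -0.68 to 0.90 for Itga4, -0.56 to 0.0385 for Itga5, -0.21 to 0.47 for Itgb3 and -0.33 to 0.11 for Sdc1. With limma-voom it was -0.16 for Itga3, -0.0470 for Itgb3 and 0.74 for Itga4, with the replicate block -0.20, -0.0404 and 0.59, and with library size alone 0.0175 for Itga1. Without adult replicates 2 and 3 it was -0.0528 for Ddr2, -0.31 for Itga3 and 3.52 for Itga4, and with adult 2 and E14.5 3 left out it was -0.0924 for Itgb3 and 0.45 for Itga4.

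In the context lists DESeq2 called 5 adhesion complex genes, 9 ligands, 7 other receptors and 2 partners, where it called 10.6% of all genes. The ligand count of 1, Lrrc32, became 0 under the block (log2 fold change -4.83, adjusted p = 0.0640), 0 to 5 without a single library, and 0 without either pair of libraries. The count of other receptors, 0, was 1 with library size alone and 0 to 2 without a single library. The median of the partner list, -0.39, was -0.37 to -0.21 without a single library. On CPM not divided by gene length, adult shares of the alpha sum were 34.3% for collagen-binding, 54.5% for RGD-type and 2.55% for Itga4 with Itga9. The cause of these shifts was not tested. Itgb6, Itgb7, Itgad and Itgae could not be compared at this depth.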
